A study of Homo sapiens with 12 samples.

Results

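The 10 genes described here encode brakes on JAK-STAT signalling: SOCS1, SOCS2, SOCS3, SOCS6 and CISH of the suppressor of cytokine signalling (SOCS) family, the tyrosine phosphatases PTPN1, PTPN2, PTPN6 and PTPN11, and PIAS1. They were taken by name out of 40173 gene identifiers, with no threshold on their values, and all 10 were found. RNA was sequenced from 624Mel, an established human melanoma cell line, in 4 conditions with 3 libraries each, to ask how loss of MITF, the master transcription factor of the melanocyte lineage, alters the response to interferon gamma (IFNγ). All cells were reverse transfected with siRNA, either a negative control (siCTRL) or a single construct against MITF (siMITF), and in the siCTRL + IFNγ and siMITF + IFNγ conditions recombinant IFNγ at 5 ng/mL followed 24 h after transfection and was left on for 24 h until harvest. A single line and a single MITF siRNA limit how far the values extend.

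IFNγ binds a receptor whose associated kinases, JAK1 and JAK2, phosphorylate STAT transcription factors, and the dimers bind GAS elements in the DNA. SOCS1, SOCS3 and CISH are themselves induced by cytokines and close a feedback loop: SOCS1 and SOCS3 block JAK kinases directly, while CISH and SOCS2 are known above all as brakes on STAT5 signalling from growth hormone and related receptors. The phosphatases remove the activating phosphates, and PIAS1 binds activated STATs in the nucleus.

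Promoters of SOCS1 and CISH are shown because both genes rose with IFNγ and their windows were the ones among those of the 10 genes that held a motif searched for. The windows run from 250 bases before to 50 after the transcription start in RefSeq (GRCh38.p14), which had entries for 8 of the 10 genes (11 windows). Capitals mark matches to TTCNNNGAA, the GAS-type motif, in CISH (chr3:50611725-50612024, minus strand) and to GAAANNGAA, an IRF-type motif, in SOCS1 (chr16:11256155-11256454, minus strand), with both strands searched.
SOCS1: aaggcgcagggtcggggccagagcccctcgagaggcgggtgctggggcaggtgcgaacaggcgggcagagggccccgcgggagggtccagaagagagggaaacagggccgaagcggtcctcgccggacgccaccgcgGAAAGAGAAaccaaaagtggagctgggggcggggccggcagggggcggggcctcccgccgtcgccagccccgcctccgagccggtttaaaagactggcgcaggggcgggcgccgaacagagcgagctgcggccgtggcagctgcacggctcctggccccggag
CISH: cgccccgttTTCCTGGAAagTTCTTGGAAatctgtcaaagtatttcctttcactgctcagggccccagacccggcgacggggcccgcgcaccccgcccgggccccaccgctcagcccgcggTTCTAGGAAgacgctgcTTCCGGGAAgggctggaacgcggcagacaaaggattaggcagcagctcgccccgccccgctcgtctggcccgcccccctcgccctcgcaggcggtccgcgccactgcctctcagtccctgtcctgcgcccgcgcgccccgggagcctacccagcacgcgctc

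CISH held 4 GAS-type matches, beginning 241, 230, 129 and 112 bases before the start. Of 35116 RefSeq promoter windows of the same length, 7.66% held at least 1 such match and 7 windows (0.0199%) held 4 or more. SOCS1 held 1 IRF-type match, beginning 113 bases before the start, against 8.11% of all windows with at least 1. Neither motif, nor the E-box CACGTG (7.26% of all windows), was found in the windows of SOCS3, SOCS6, PTPN1, PTPN2, PTPN6 and PIAS1. A match is a run of letters and was not tested for binding. The windows of SOCS1, SOCS6 and CISH are set on the same start as the coordinates given for the genes here. Those of PTPN1, PTPN6, PIAS1 and SOCS3 lie 6 to 4888 bases from it, and that of PTPN2 lies 88.7 kb away, so the search says nothing of other start sites. The windows of SOCS3, set 848 and 410 bases away, do not cover the start given for that gene here. SOCS2 and PTPN11 had no entry.

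**Figure D1:**
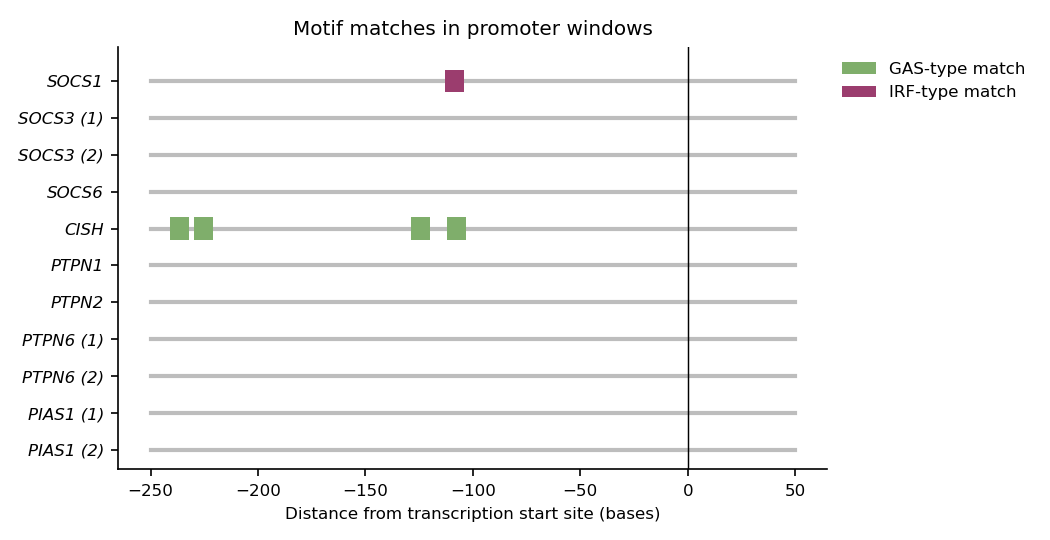
Motif matches in the 11 promoter windows of 8 genes, by distance from the transcription start in bases (numbers in brackets tell apart windows of one gene). The 4 green boxes are GAS-type matches in CISH and the purple box is the IRF-type match in SOCS1.

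The targeted gene was checked first. MITF was at 187, 229 and 217 TPM, a relative level that corrects for transcript length and sequencing depth, in the siCTRL libraries and at 36.0, 49.7 and 41.7 TPM in the siMITF libraries. With IFNγ it was at 158, 246 and 243 TPM under siCTRL and at 37.5, 55.1 and 51.3 TPM under siMITF, so siMITF libraries lay below all siCTRL libraries. All 7 melanocytic markers (MITF, SOX10, PMEL, MLANA, DCT, TYR and TYRP1) averaged 2 TPM or more in every condition. None of 6 leukocyte and none of 3 keratinocyte markers did, and of 4 fibroblast markers LUM alone did. Summed leukocyte markers ran from 0.758 to 0.866 TPM in siCTRL, 0.899 to 1.16 with siCTRL + IFNγ, 0.498 to 0.727 in siMITF and 1.30 to 1.39 with siMITF + IFNγ, with CD3E listed at 0 throughout. Mitochondrial transcripts took 7.42 to 16.9% of TPM, least in replicate 2 of each condition. The values are TPM, so depth is unknown, and fewer cells expressing a gene cannot be told apart from less RNA of it per cell.

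Differences are in log2(TPM + 1) from a limma fit over the 12773 gene identifiers whose mean reached 2 TPM in any condition, and a gene passed with a Benjamini-Hochberg adjusted p under 0.05. A gene passed as 2-fold where the log2 difference was also at least 1 and the mean reached 2 TPM in a condition compared. Of the 10 genes, 9 were tested and PTPN6 was not. SOCS1 and SOCS3 reached 2 TPM in the IFNγ conditions only and so entered the fit through the conditions in which they were high. Counts over the tested genes are therefore descriptions.

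SOCS1, a direct inhibitor of JAK kinases, was nearly silent in untreated cells and rose with IFNγ and with MITF knockdown (ENSG00000185338, chr16:11254417-11256204, minus strand). Its level was 0.242, 0.221 and 0.341 TPM in siCTRL, 3.80, 4.63 and 2.96 in siCTRL + IFNγ, 1.49, 1.89 and 2.14 in siMITF, and 9.26, 11.4 and 11.0 in the siMITF + IFNγ libraries. The 4 conditions did not overlap, and the means ran in the order siCTRL, siMITF, siCTRL + IFNγ and siMITF + IFNγ (0.268 ± 0.0641, 1.84 ± 0.330, 3.80 ± 0.835 and 10.6 ± 1.14 TPM, SD, n = 3). IFNγ raised it by 1.91 ± 0.14 (SE) on the log2 scale in siCTRL cells (limma adjusted p = 7.4e-07) and by 2.03 in siMITF cells (limma adjusted p = 3.4e-07). MITF knockdown raised it by 1.16 without IFNγ (limma adjusted p = 4.1e-05) and by 1.28 with IFNγ (limma adjusted p = 2.0e-05). The ratios of mean TPM were 14.2 and 5.74 for IFNγ in siCTRL and siMITF cells and 6.86 for siMITF without IFNγ, larger than the log2 values imply because the pseudocount of 1 compresses low levels. With a pseudocount of 0.1 the IFNγ difference in siCTRL cells was 3.40 and the siMITF difference without IFNγ was 2.40. Both treatments together left SOCS1 39.4 times above siCTRL.

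SOCS3, which binds both JAKs and receptors of the gp130 group, had the largest IFNγ difference of the 9 tested genes on the log2(TPM + 1) scale (ENSG00000184557, chr17:78356778-78360077, minus strand). It was at 0.626, 0.964 and 1.23 TPM in siCTRL and at 11.1, 13.2 and 11.6 TPM in siCTRL + IFNγ libraries. Under siMITF it was at 1.70, 1.98 and 2.11 TPM, and with IFNγ at 12.9, 14.2 and 15.5 TPM. Every IFNγ library was above every library without it, whereas the 2 IFNγ conditions overlapped. IFNγ raised SOCS3 by 2.75 ± 0.13 (SE) in siCTRL cells (limma adjusted p = 5.7e-09) and by 2.37 in siMITF cells (limma adjusted p = 2.2e-08). As a ratio of mean TPM the response was 12.7 in siCTRL cells, below the 14.2 of SOCS1, and 7.36 in siMITF cells. MITF knockdown raised it by 0.60 without IFNγ (limma adjusted p = 0.00279). This value was 0.33 after quantile normalization (limma adjusted p = 0.0276) and 1.00 with a pseudocount of 0.1 (0.00156). With IFNγ the siMITF difference was 0.23, 95% interval -0.05 to 0.51 (limma adjusted p = 0.194).

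SOCS2, a brake on growth hormone signalling, moved in opposite directions under the 2 treatments (ENSG00000120833, chr12:93569814-93583487, plus strand). It was at 11.9, 14.1 and 11.7 TPM in siCTRL, 5.36, 6.31 and 5.40 in siCTRL + IFNγ, 42.4, 41.2 and 43.2 in siMITF, and 22.3, 22.1 and 26.7 in the siMITF + IFNγ libraries. No 2 conditions overlapped. IFNγ lowered SOCS2 by a log2 difference of -1.02 ± 0.10 (SE) in siCTRL cells (limma adjusted p = 1.5e-05) and of -0.81 in siMITF cells (limma adjusted p = 1.0e-04). MITF knockdown raised it by 1.68 without IFNγ (limma adjusted p = 9.6e-08) and by 1.88 with IFNγ (limma adjusted p = 3.9e-08), or 3.36 and 4.16 times in mean TPM. With both treatments SOCS2 stood at 1.89 times its siCTRL mean. LUM, a fibroblast marker, passed with the same signs as SOCS2 in all 4 comparisons, at -0.70 and -0.65 for IFNγ in siCTRL and siMITF cells and at 0.46 and 0.51 for siMITF without and with IFNγ. Summed over the 4 fibroblast markers the level was 5.29 to 6.73 TPM in siCTRL, 2.68 to 3.78 with IFNγ, 7.40 to 8.72 after siMITF and 4.93 to 5.84 after both, COL1A1, COL1A2 and DCN each averaging under 1 TPM. LUM made up most of each sum and was the only fibroblast marker that entered the fit. After siMITF without IFNγ, DCN went the other way to SOCS2, from 0.601 to 0.407 TPM. So did COL1A2 with IFNγ in siMITF cells, from 0.0644 to 0.266 TPM. The other means of COL1A1, COL1A2 and DCN moved in the direction of SOCS2. The part of these markers in the SOCS2 differences was not tested. The gene shares 277 exon bases with the antisense SOCS2-AS1, and the library kit does not mark strand, so reads there cannot be assigned with certainty.

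CISH, the founding SOCS family gene and a STAT5 target, rose with IFNγ and was lower after MITF knockdown in the absence of IFNγ (ENSG00000114737, chr3:50606489-50611774, minus strand). It was at 3.00, 3.32 and 3.31 TPM in siCTRL, 5.55, 6.54 and 5.14 in siCTRL + IFNγ, 2.05, 2.25 and 1.82 in siMITF, and 4.41, 5.48 and 5.01 in the siMITF + IFNγ libraries. The 2 conditions without IFNγ were separate from each other and below both IFNγ conditions, which overlapped. IFNγ raised CISH by 0.67 ± 0.11 (SE) in siCTRL cells (limma adjusted p = 0.00136) and by 0.97 in siMITF cells (limma adjusted p = 4.7e-05). The siMITF difference was -0.47 without IFNγ (limma adjusted p = 0.00553) and -0.17 with it, 95% interval -0.42 to 0.07 (limma adjusted p = 0.260). CISH shares 218 exon bases with MAPKAPK3 on the other strand, whose mean was 26.3 and 26.5 TPM in siCTRL without and with IFNγ and 17.4 and 18.8 TPM in siMITF. The part of that overlap in the siMITF difference was not tested.

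SOCS6, which acts on receptor tyrosine kinases more than on JAKs, had the smallest range of condition means, as a ratio, of the 5 SOCS family genes described here (ENSG00000170677, chr18:70289045-70330199, plus strand). It was at 26.0, 30.8 and 28.7 TPM in siCTRL, 23.3, 29.8 and 26.9 in siCTRL + IFNγ, 21.4, 23.7 and 21.6 in siMITF, and 19.6, 20.4 and 21.6 in the siMITF + IFNγ libraries. Each condition overlapped its neighbour in the order of means, while each siMITF condition lay below the siCTRL condition with the same IFNγ treatment. The siMITF difference was -0.34 without IFNγ (limma adjusted p = 0.0186) and -0.35 with IFNγ (limma adjusted p = 0.0167). The call without IFNγ was lost on leaving out siCTRL replicate 2 or 3 or siMITF replicate 1 or 3, with adjusted p = 0.0727, 0.0584, 0.0695 and 0.0619 in limma. The call with IFNγ was lost without siCTRL + IFNγ replicate 2 or 3 (limma adjusted p = 0.0599 and 0.0554) and with only the 2 conditions in the fit (0.0772). The IFNγ differences, -0.10 and -0.11 in siCTRL and siMITF cells, did not pass (limma adjusted p = 0.592 and 0.477).

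The make-up of the SOCS family transcripts shifted with each treatment. Summed over the 5 genes, the siCTRL level was 45.5 ± 3.83 TPM, against 53.8 ± 5.87 with IFNγ, 70.3 ± 1.12 with siMITF and 73.9 ± 5.73 with both treatments (SD, n = 3). In siCTRL cells SOCS6 made up 62.7% ± 0.668 of this sum and SOCS2 27.6% ± 1.58, with 0.593% from SOCS1 and 2.06% from SOCS3. IFNγ brought SOCS3 to 22.3% ± 0.453 and SOCS1 to 7.03% ± 1.16, and SOCS2 stood at 10.6% ± 0.287. In siMITF cells SOCS2 led with 60.1% ± 1.87, ahead of SOCS6 at 31.6% ± 1.56. With both treatments no gene held more than 32.0% on average, with SOCS2 at 32.0%, SOCS6 at 27.8%, SOCS3 at 19.2%, SOCS1 at 14.3% and CISH at 6.72%. These are shares of RNA and carry no test.

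Among the phosphatases, PTPN1 (PTP1B), which dephosphorylates JAK2 and TYK2, was lower after MITF knockdown (ENSG00000196396, chr20:50510321-50585241, plus strand). It was at 73.3, 82.0 and 79.5 TPM in siCTRL, 75.1, 103 and 93.6 in siCTRL + IFNγ, 45.0, 52.1 and 46.8 in siMITF, and 42.8, 58.7 and 56.3 in the siMITF + IFNγ libraries. All siMITF libraries were below all siCTRL libraries, whatever the IFNγ treatment. The siMITF difference was -0.70 ± 0.13 (SE) without IFNγ (limma adjusted p = 0.00129) and -0.77 with IFNγ (limma adjusted p = 6.3e-04). The IFNγ differences were 0.20 in siCTRL cells (limma adjusted p = 0.384) and 0.12 in siMITF cells (0.561). The first passed after quantile normalization (0.24, limma adjusted p = 0.0431) and median centring (0.21, 0.0497).

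PTPN2 (TCPTP), a nuclear and cytoplasmic phosphatase of JAKs and STATs, was higher with IFNγ in siMITF cells (ENSG00000175354, chr18:12785478-12929643, minus strand). It was at 20.0, 19.1 and 18.4 TPM in siCTRL, 21.1, 21.7 and 21.2 in siCTRL + IFNγ, 19.2, 20.3 and 19.2 in siMITF, and 27.4, 24.7 and 22.1 in the siMITF + IFNγ libraries. Libraries with IFNγ lay above their untreated counterparts under both siRNAs. The IFNγ difference was 0.32 ± 0.08 (SE) in siMITF cells (limma adjusted p = 0.0187) and 0.15 in siCTRL cells, 95% interval -0.04 to 0.33 (limma adjusted p = 0.304). The call in siMITF cells was lost without siMITF replicate 1 or 3 or siMITF + IFNγ replicate 1, with adjusted p = 0.0687, 0.0642 and 0.0601 in limma, and with only the 2 conditions in the fit (0.0589). The siMITF difference with IFNγ was 0.20 (limma adjusted p = 0.0868), and it passed with the replicate number as a block (0.0392) or without siMITF + IFNγ replicate 3 (0.28, 0.0283). Without IFNγ it was 0.03 (limma adjusted p = 0.821).

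PTPN11 (SHP-2) both dampens STAT signalling and relays growth factor signals to the MAP kinase pathway (ENSG00000179295, chr12:112418351-112509918, plus strand). It had the highest mean of the 10 genes in siCTRL and in both siMITF conditions, and was below PTPN1 in siCTRL + IFNγ. It was at 73.9, 94.1 and 88.6 TPM in siCTRL, 50.7, 82.1 and 76.9 in siCTRL + IFNγ, 99.7, 123 and 108 in siMITF, and 72.2, 96.5 and 89.6 in the siMITF + IFNγ libraries. Replicate 1 was lowest and replicate 2 highest in each of the 4 conditions, and replicate 2 also had the smallest mitochondrial share in each, whose part was not tested. Its differences were -0.31 and -0.36 for IFNγ in siCTRL and siMITF cells (limma adjusted p = 0.281 and 0.163) and 0.36 and 0.32 for siMITF without and with IFNγ (0.120 and 0.179), and none passed. With the replicate number as a block all 4 passed, with adjusted p = 0.0134, 0.00446, 0.00238 and 0.00606 in limma. The siMITF differences also passed after quantile normalization (0.0206 and 0.0314) and median centring (0.0246 and 0.0365), the first of them with only the 2 conditions in the fit (0.0191) and without siCTRL + IFNγ replicate 1 (0.0328), and the IFNγ difference in siMITF cells after median centring (limma adjusted p = 0.0410). Without siCTRL + IFNγ replicate 1 the siMITF difference with IFNγ was 0.10 and the IFNγ difference in siCTRL cells -0.10 (limma adjusted p = 0.590 and 0.754). Without siMITF + IFNγ replicate 1 the IFNγ difference in siMITF cells was -0.24 (0.416). PTPN11 shares 111 exon bases with the opposite-strand RPL6, a ribosomal protein gene at 1586 to 1864 TPM by condition mean, so a part of its reads is uncertain.

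PTPN6 (SHP-1), the phosphatase typical of blood cells, was near the bottom of the scale in all libraries (ENSG00000111679, chr12:6946468-6961316, plus strand). It was at 0.0990, 0.184 and 0.228 TPM in siCTRL, 0.795, 0.410 and 0.388 in siCTRL + IFNγ, 0.240, 0.254 and 0.265 in siMITF, and 0.378, 0.118 and 0.238 in the siMITF + IFNγ libraries. The siCTRL + IFNγ libraries were the highest and did not overlap siCTRL. At these levels it was not tested.

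PIAS1, a SUMO ligase that binds activated STATs, was close in level across the conditions (ENSG00000033800, chr15:68054309-68198603, plus strand). It was at 17.2, 22.1 and 20.3 TPM in siCTRL, 18.4, 23.2 and 21.9 in siCTRL + IFNγ, 18.7, 21.3 and 20.9 in siMITF, and 16.0, 15.5 and 19.7 in the siMITF + IFNγ libraries. Each condition overlapped its neighbour in the order of means. The differences were 0.09 and -0.24 for IFNγ in siCTRL and siMITF cells (limma adjusted p = 0.707 and 0.186) and 0.03 and -0.30 for siMITF without and with IFNγ (0.862 and 0.0824). The last passed with the replicate block (limma adjusted p = 0.0156), quantile normalization (0.0121), median centring (0.0130) and without siCTRL + IFNγ replicate 1 (0.0308) or siMITF + IFNγ replicate 3 (0.0335). PIAS1 shares 3261 exon bases with CALML4 on the other strand, at 5.73 to 6.81 TPM by condition mean.

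IFNγ in siCTRL cells thus raised SOCS1, SOCS3 and CISH and lowered SOCS2, 3 and 1 of the 9 tested genes, where 6.80% of all tested genes rose and 6.14% fell. SOCS1 and SOCS3 rose and SOCS2 fell 2-fold, against 2.42% and 0.102% of all tested genes. SOCS2 lay just past this limit, and its 2-fold call was lost without siCTRL replicate 2 (-0.94) or siCTRL + IFNγ replicate 1 (-0.98) or 3 (-0.99). With the replicate block PTPN11 also fell, while 9.67% of all genes rose and 16.0% fell. Of all genes that passed, 52.5% were higher, against 41.7% after quantile normalization, 37.6% with the replicate block and 65.1% with only the 2 conditions in the fit. In siMITF cells, IFNγ raised SOCS1, SOCS3, CISH and PTPN2 and lowered SOCS2 (all genes: 7.99% higher, 12.2% lower), with SOCS1 and SOCS3 up 2-fold and none down 2-fold (2.72% and 0.227%). CISH, at 0.97, was just under 2-fold and passed it with pseudocounts of 0.1 (1.24) and 0.5 (1.11), after median centring (1.01), and without siMITF replicate 2 (1.02) or siMITF + IFNγ replicate 1 (1.04). With the replicate block 11.2% of all genes rose and 24.5% fell, PTPN11 among them. After median centring PTPN11 joined those that fell, giving 4 higher and 2 lower. The median of the 9 genes was 0.15 in siCTRL and 0.12 in siMITF cells, against -0.07 and -0.10 over all genes tested.

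MITF knockdown without IFNγ raised SOCS1, SOCS2 and SOCS3 and lowered SOCS6, CISH and PTPN1, while 21.0% of all tested genes rose and 13.8% fell. SOCS2 rose 2-fold and none fell 2-fold (all genes: 3.22% and 2.88%), since the mean of SOCS1 was under 2 TPM in both conditions (1.84 in siMITF). With the replicate block PTPN11 also rose, and 28.8% of all genes rose and 18.9% fell. With IFNγ present, siMITF raised SOCS1 and SOCS2, both 2-fold, and lowered SOCS6 and PTPN1 (18.4% higher and 14.7% lower over all genes, 3.12% and 2.57% by the 2-fold rule). With the replicate number as a block 7 of the 9 passed in this comparison in place of 4, PTPN2, PTPN11 and PIAS1 being added, and 25.3% of all genes rose and 21.0% fell. The medians over the 9 genes were 0.03 and 0.20, against 0.06 and 0.03 over all genes. The 4 comparisons share libraries, so their counts are not independent.

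**Figure D2:**
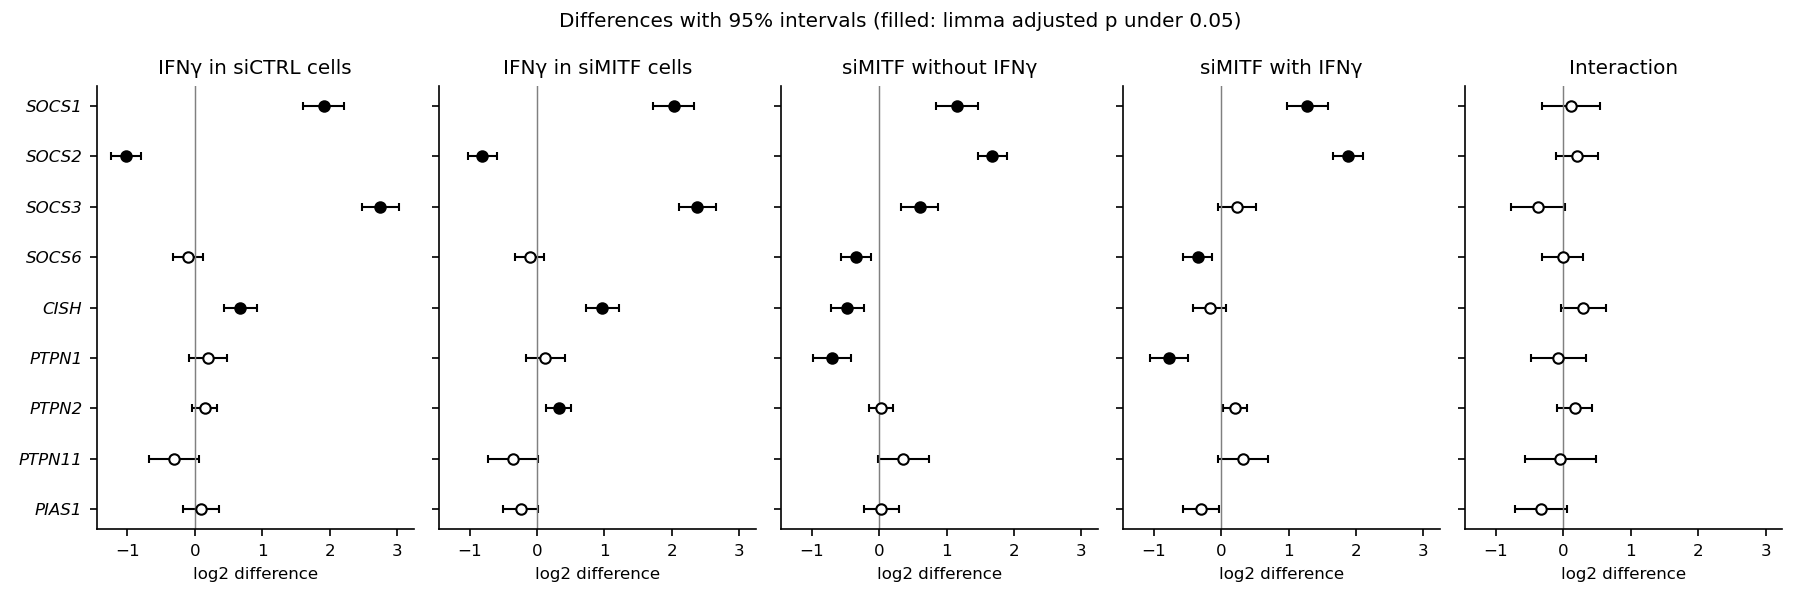
Log2 differences of the 9 tested genes in the 4 comparisons and the interaction, with 95% intervals from limma on a common axis and filled points where the adjusted p was under 0.05. SOCS1 and SOCS2 are filled in all 4 comparisons, and no point is filled for the interaction.

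Whether MITF knockdown changed the IFNγ response was tested as an interaction. None of the 9 genes passed (limma), against 0.705% of all genes higher and 0.243% lower. None passed in any alternative that held this test, which the fit to only the 2 conditions compared did not. In the main limma fit 0 of the 9 had an unadjusted p under 0.05, against 980 of 12773 genes. Unadjusted p-values were not counted in the alternatives, so the 0 of 9 is known for the main fit only. The interaction was 0.12 for SOCS1, 95% interval -0.31 to 0.55 (limma adjusted p = 0.987). It was 0.20 for SOCS2, interval -0.11 to 0.52 (limma adjusted p = 0.886), and -0.37 for SOCS3, interval -0.77 to 0.02 (limma adjusted p = 0.697). For CISH it was 0.30, interval -0.04 to 0.64 (limma adjusted p = 0.751). These intervals do not show that the responses were equal. The sign for SOCS1 depended on the pseudocount, with -0.22 ± 0.23 (SE) at 0.5 and -0.93 ± 0.29 at 0.1 (limma adjusted p = 0.959 and 0.320). For SOCS3 the interaction was -0.76 with a pseudocount of 0.1 and -0.12 after quantile normalization.

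In TPM, the sum of the 2 single effects added to the siCTRL mean gave 5.37 for SOCS1, and the mean with both treatments was 10.6 ± 1.14. For SOCS2 the sum was 35.4 and the measured mean 23.7 ± 2.57 TPM. SOCS3 and CISH lay nearer to their sums, with 12.9 against 14.2 ± 1.33 and 4.57 against 4.97 ± 0.539 TPM. Departures on this scale were not tested.

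The upstream and downstream genes put these values in context. Of 13 genes for the IFNγ receptor, JAK kinases and STATs, 11 were tested. With IFNγ 3 rose in siCTRL and in siMITF cells, among them STAT2, from 17.6 to 104 TPM and from 21.8 to 127 TPM, and STAT3, by 1.79 and 1.55 on the log2 scale, and none fell. With siMITF 2 of the 11 rose without IFNγ, STAT3 and STAT6, and with IFNγ present STAT6 rose and TYK2 fell. Over all tested genes 21.0% rose and 13.8% fell with siMITF without IFNγ, and 18.4% and 14.7% with IFNγ. For IFNγ itself the shares were 6.80% and 6.14% in siCTRL cells and 7.99% and 12.2% in siMITF cells. The medians of the 11 were 0.06 and 0.09 for IFNγ and 0.02 and -0.00 for siMITF. Of 10 IFNγ target genes all rose with IFNγ, with medians of 4.61 and 5.38, and siMITF raised 2 and lowered 1 of them without IFNγ and raised 8 with IFNγ. For the interaction 4 of the 10 targets passed, CXCL10 (1.78), CIITA (1.08), GBP2 (0.93) and IRF9 (0.61). For CXCL10 the IFNγ ratio of mean TPM was 6721 in siCTRL and 1509 in siMITF cells, from 0.0236 and 0.558 TPM. Its ratio was thus smaller after siMITF, since the pseudocount of 1 compresses low levels. IDO1 (5824 and 762) and PSMB9 (64.6 and 52.9) also had smaller ratios after siMITF. The ratios of the other targets were larger, among them CIITA (9.95 and 24.8), GBP2 (30.2 and 57.4) and IRF9 (5.20 and 8.64). The interaction had a median of 0.62 over the 10 targets, -0.01 over the 9 brakes and -0.03 over all genes tested. GBP1, PSMB9, CIITA, CXCL10 and IDO1 reached 2 TPM in the IFNγ conditions only and entered the fit through them. Counts and medians over the targets are therefore descriptions, and the difference between the lists was not tested.

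Of 13 further brakes, 12 were tested. USP18, which blocks the type I interferon receptor, rose with IFNγ from 5.03 to 36.2 TPM in siCTRL and from 2.75 to 20.0 TPM in siMITF cells. It has a near-identical copy, USP41, so its reads are uncertain. The adaptor SH2B3 fell in both (-0.60 and -0.42) and SOCS4 in siCTRL cells (-0.34). Over all tested genes IFNγ raised 6.80% and lowered 6.14% in siCTRL cells, and 7.99% and 12.2% in siMITF cells. With siMITF, PDLIM2, a ubiquitin ligase for STATs, rose from 35.4 to 72.0 TPM without IFNγ and by 0.79 on the log2 scale with it. SOCS5 rose and SOCS4 and USP18 fell in both siMITF comparisons. Of the 12, 2 were thus higher and 2 lower in each. Over all tested genes 21.0% were higher and 13.8% lower without IFNγ, and 18.4% and 14.7% with it. The medians of the 12 were -0.21 and -0.23 for IFNγ and -0.00 and 0.01 for siMITF without and with IFNγ, and none passed for the interaction.

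**Figure D3:**
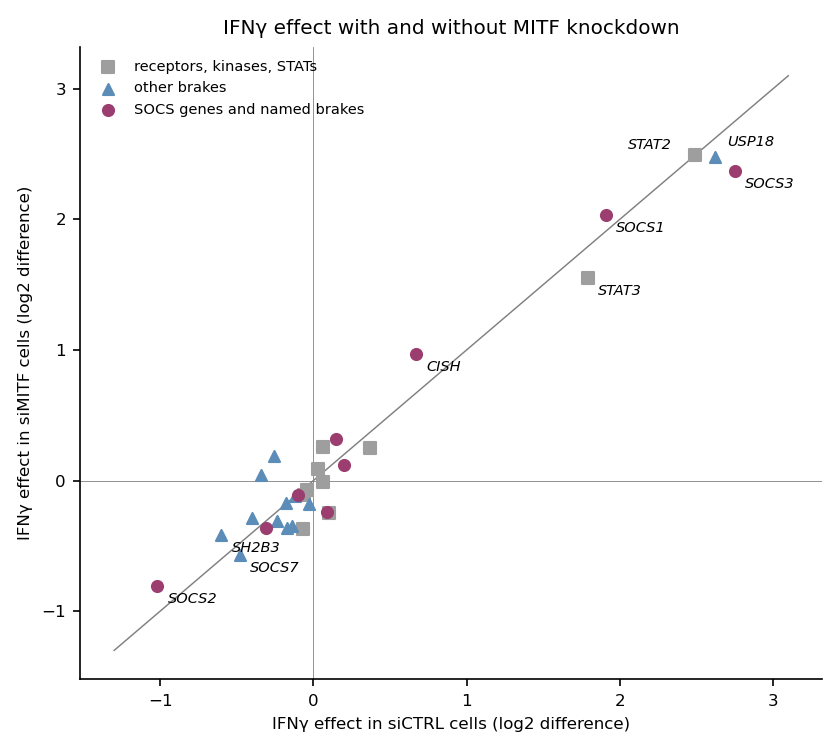
IFNγ effect (log2 difference) in siCTRL cells on the x axis and in siMITF cells on the y axis for the 9 tested brakes, the 12 further brakes and 10 of the 11 tested receptor, kinase and STAT genes, with the diagonal drawn. SOCS1, SOCS3, USP18, STAT2 and STAT3 lie at the upper right and SOCS2 at the lower left.

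Of 14 genes for other cytokine receptors that SOCS proteins and phosphatases act on, 11 were tested. IFNγ raised IFNAR2, of the type I interferon receptor, from 15.3 to 32.2 TPM in siCTRL and from 16.9 to 36.9 TPM in siMITF cells, and IL10RB by 0.75 and 0.62. GHR, the growth hormone receptor on which SOCS2 acts, fell with IFNγ in siMITF cells (-0.94), and the siMITF difference was -0.64 without IFNγ and -1.03 with IFNγ, where the level went from 14.6 to 6.54 TPM. IL6R, of the gp130 group, fell with siMITF from 47.8 to 20.6 TPM and, with IFNγ, from 38.6 to 14.8 TPM. LEPR rose in both siMITF comparisons (1.10 and 0.99), and IL4R and EPOR rose without IFNγ (0.63 and 0.46). LEPR was low, at 0.756 and 0.952 TPM in siCTRL without and with IFNγ and 2.77 and 2.88 TPM in siMITF. It entered the fit through the siMITF conditions only. Of the 11, siMITF thus raised 3 and lowered 2 without IFNγ, and raised 1 and lowered 2 with it. Over all tested genes 21.0% rose and 13.8% fell without IFNγ, and 18.4% and 14.7% with it. IFNγ raised 6.80% and lowered 6.14% of all tested genes in siCTRL cells, and 7.99% and 12.2% in siMITF cells. The medians of the 11 were 0.13 and 0.03 for IFNγ and 0.10 and -0.03 for siMITF, and none passed for the interaction.

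The genes whose levels followed SOCS1, SOCS2, SOCS3 and CISH most closely over the 12 libraries were listed by Pearson's r of log2(TPM + 1), as a description. For SOCS1 these were STX4 (0.991), ACOX2 (0.990) and MVB12A (0.988), and ACOX2, a peroxisomal oxidase, averaged 0.360 TPM in siCTRL, 6.27 after IFNγ, 2.31 after siMITF and 17.5 after both. For SOCS2 they were HTRA1 (0.996), LGALS1 (0.993) and ELOVL2 (0.991), and HTRA1, a secreted protease, went through 39.4, 28.1, 79.7 and 57.3 TPM in the same order. For SOCS3 they were IFITM3 (0.996), TMEM158 (0.993) and IFITM1 (0.993), of which IFITM3 and IFITM1 are antiviral membrane proteins. For CISH they were SLC2A3 (0.986), a glucose transporter, PERP (0.984) and LINS1 (0.982). These correlations rest on 4 condition means more than on 12 separate points.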

How the data were processed

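RNA-seq of 624Mel cells was analysed in 12 libraries, 3 per condition, grouped by their labels. The authors trimmed reads with Trimmomatic 0.39, quantified them with kallisto on the Ensembl GRCh38 transcriptome, and deposited TPM per gene and library. How transcripts were summed to genes is not given in the sources used here. The authors also ran DESeq2 1.26.0 on counts, which are not used here. The study describes the libraries as biological replicates while the labels only number them, so p-values measure the spread between these samples, and an exact permutation test of 3 against 3 could not go below 0.1.

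Deposited TPM were transformed to log2(TPM + 1). The 12773 gene identifiers whose mean reached 2 TPM in any condition entered one limma fit (version 3.58.1, R 4.3.3) that held a coefficient for each condition. Variances were moderated by empirical Bayes along the intensity trend, tests were two-sided, and p-values were adjusted over all fitted identifiers by the Benjamini-Hochberg method. The fit was tested on simulated data. Symbols, coordinates and exon overlaps came from GENCODE 44 on GRCh38 (816 tested identifiers had no symbol), and promoters from RefSeq. Python 3.11.15 (pandas 2.3.3, numpy 2.4.6, matplotlib 3.10.9) was used for tables and plots.

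The genes and lists were chosen with earlier results of these data known, and 1 gene of the lists is not reported here. Named beyond the 10 brakes were MITF, list genes that passed the 2-fold rule or the interaction, and list genes that passed otherwise where a count is small. The SOCS genes left out of the family sum and the 3 genes most like SOCS1, SOCS2, SOCS3 and CISH were named as well.

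Deviations from the condition means correlated across genes at 0.102 to 0.625 in the 18 library pairs that share a replicate number, with a median of 0.280, and at -0.474 to 0.226, with a median of -0.196, in the 36 that do not. The ranges overlap, but every pair with a shared number was above 0.1, so the numbers were taken to pair the libraries. The main fit leaves this pairing out, so its p-values ignore it, and a replicate block was one of the alternatives. The rest were smaller pseudocounts (0.1, 0.5), testing all identifiers with signal, a stricter minimum (mean over the 12 libraries of 5 TPM), quantile normalization, median centring, moderation without the trend, a fit to only the 2 conditions compared, and omission of each library in turn.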

Additional observations from a re-analysis of the deposited data

How the results depend on the processing

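For SOCS1, SOCS2, SOCS3, CISH and PTPN1, adjusted p-values under 0.05 stayed under 0.05 in every alternative in which the gene was tested. The 2-fold calls that changed are those given for SOCS2 and CISH, and that of SOCS1 for siMITF without IFNγ. Without siMITF replicate 1 the SOCS1 difference was 1.25 (limma adjusted p = 1.0e-04). The siMITF libraries left were then at 1.89 and 2.14 TPM, on average past the limit of 2 TPM. With the stricter minimum (mean over the 12 libraries of 5 TPM), 2 of the brakes passed for IFNγ in siCTRL cells and 3 in siMITF cells, because fewer of them were tested. For siMITF with IFNγ, 7 passed after quantile normalization and 7 with the replicate block. CISH was among the 7 after quantile normalization (-0.24, limma adjusted p = 0.0374), and the cause was not tested. The replicate block changed no call of the brakes other than those given for PTPN2, PTPN11 and PIAS1.

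Leaving out 1 library gave counts of 4 to 4 for IFNγ in siCTRL cells, 4 to 5 in siMITF cells, 5 to 7 for siMITF without IFNγ, 3 to 6 with IFNγ, and 0 for the interaction. The differences that changed sign had not passed. They were, for the interaction, SOCS1 (-0.93 and -0.22 with pseudocounts of 0.1 and 0.5, and -0.01 to 0.24 with a library left out), SOCS6 (0.01 after quantile normalization and 0.01 after median centring, and -0.10 to 0.07), PTPN1 (-0.20 to 0.06) and PTPN11 (-0.26 to 0.08). The siMITF difference without IFNγ was -6.0e-04 and -0.0033 for PTPN2 after quantile normalization and median centring. For PIAS1 it ran from -0.06 to 0.11 with a library left out, and the IFNγ difference in siCTRL cells from -0.01 to 0.18. Of the single-gene values from settings other than leaving out a library, 361 kept direction and side of the threshold, 6 changed sign, 17 newly passed and 2 no longer passed. With a library left out the counts were 513, 14, 4 and 9. Leaving out a library of a condition outside the comparison cannot move the difference, so part of this agreement was fixed in advance. Depth per library is unknown in TPM, so no counting error was set on the low levels of SOCS1 and PTPN6.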
